A study of Mus musculus with 21 samples.

Results

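Mouse embryonic fibroblasts that received PU.1 with Irf4 (PI4) were compared with fibroblasts that received PU.1 with Irf8 (PI8), 3 days after lentiviral transduction. The cells described are those of the PI4 day 3 and PI8 day 3 libraries that held at least 10000 unique molecular identifiers (UMIs, each marking 1 captured transcript): 630 of the 25991 deposited cells. PI4 gave 229 of its 712 cells and PI8 gave 401 of its 411 cells. The cells were selected on their total UMI counts, and the pair was chosen by results of these counts that were already known, so the comparison between these libraries is a description and carries no test.

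The series profiled single cells with a droplet assay that reads transcripts near their 3′ end, in 21 libraries of transduced fibroblasts, fibroblasts that received no factor and splenic dendritic cells (DCs). Both groups came from fibroblasts of the genotype Clec9aCre/Cre Rosa26stopflox-tdTomato/tdTomato, in which tdTomato marks cells that switched on Cre from the Clec9a gene or descend from such cells. Both were grown on gelatin and sorted as live (DAPI-), tdTomato+ cells, so each library holds only cells in which the reporter was on. Each factor set had 1 library at day 3 and 1 at day 9. The other sets used here were PIP (PU.1, Irf4 and Prdm1) and PIB (PU.1, Irf8 and Batf3), delivered to fibroblasts of the same genotype and sorted in the same way. No source used here tells whether libraries came from separate cultures.

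Irf4 and Irf8 are sister transcription factors of the interferon regulatory factor (IRF) family. Both bind DNA weakly alone and pair with the ETS factor PU.1, encoded by Spi1, at composite ETS-IRF elements, or with AP-1 family factors such as Batf3. In the spleen, Irf8 is required for type 1 conventional DCs (cDC1), which present antigen from dead cells to CD8 T cells, and Irf4 is prominent in type 2 conventional DCs (cDC2), which present antigen to CD4 T cells. PU.1 drives myeloid genes, including those of macrophages.

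Promoters of 6 genes are shown because they carry the classical elements of 2 gene groups described here. The sequences are the bases just before the RefSeq transcription start, on the coding strand of GRCm38.p6. In the class II genes of the major histocompatibility complex (MHC), capitals mark the Y box core ATTGG and either the X box, searched as AAC, any base and GATGATG, or the cyclic AMP response element TGACGTCA. In H2-Eb1 a second Y box match lies on the opposite strand. The elements are where the class II enhanceosome assembles and recruits the co-activator Ciita. The H2-Aa window is chr17:34287824-34287933 on the minus strand, the H2-Eb1 window chr17:34305757-34305866 and the H2-DMb1 window chr17:34153081-34153190, both on the plus strand.
H2-Aa: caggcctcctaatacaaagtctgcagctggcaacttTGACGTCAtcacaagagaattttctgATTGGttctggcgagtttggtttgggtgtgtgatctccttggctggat
H2-Eb1: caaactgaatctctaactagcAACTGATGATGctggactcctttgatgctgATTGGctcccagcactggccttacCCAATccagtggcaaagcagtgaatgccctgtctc
H2-DMb1: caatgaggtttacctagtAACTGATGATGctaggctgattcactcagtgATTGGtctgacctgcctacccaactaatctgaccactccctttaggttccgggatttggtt

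In the interferon-induced genes, capitals mark the core of the interferon-stimulated response element, GAAA, any 2 bases and GAAA, which IRF proteins can bind. In Ifit3 and Gbp2 the match lies on the opposite strand, and in Irgm1 a pair of matches overlap. The windows are chr19:34583369-34583528 (plus strand) for Ifit3, chr3:142620503-142620662 (plus strand) for Gbp2 and chr11:48871421-48871580 (minus strand) for Irgm1.
Ifit3: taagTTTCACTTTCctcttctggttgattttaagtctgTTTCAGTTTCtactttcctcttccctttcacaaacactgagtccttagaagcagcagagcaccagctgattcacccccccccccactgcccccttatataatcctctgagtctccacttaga
Gbp2: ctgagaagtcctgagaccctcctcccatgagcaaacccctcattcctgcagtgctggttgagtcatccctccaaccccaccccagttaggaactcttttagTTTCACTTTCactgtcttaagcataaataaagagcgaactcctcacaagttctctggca
Irgm1: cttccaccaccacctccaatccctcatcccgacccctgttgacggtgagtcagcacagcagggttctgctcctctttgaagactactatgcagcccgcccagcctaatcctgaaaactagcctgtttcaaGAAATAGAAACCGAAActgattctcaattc

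The kept cells of both libraries were deep. The median was 77369 UMIs and 6870 genes per cell in PI4 and 83519 UMIs and 7065 genes in PI8, and the summed totals were 14908146 and 31060874 UMIs. The limit removed 483 PI4 cells and 10 PI8 cells. Just outside it, 20 PI4 cells of 8000 to 10000 UMIs had a median of 2216 genes, and just inside it, 8 PI4 cells of up to 12000 UMIs had a median of 2601 genes. The corresponding PI8 values were 2536 genes in 2 cells and 2773 genes in 3 cells. The libraries shared 0 cell barcodes. The library labelled PI8 day 9, used further on, stood apart from the other transduced libraries: Mpo and Kit, genes of blood progenitors, were at 589 and 124 CPM (a gene's UMIs per 1000000 UMIs of its library) in it, against 0 and 1.01 CPM in PI4 day 3 and 0 and 0.0966 CPM in PI8 day 3, and Col1a1 had 0 counts. The median mitochondrial share of the kept cells was 2.24% in PI4 and 2.21% in PI8. It was 1.49% in 83 PI4 cells and 2.42% in 61 PI8 cells of up to 60000 UMIs. In the deeper cells, 146 and 340, it was 2.28% and 2.20%. The transcripts Gm42418, AY036118 and Lars2, taken as marks of RNA quality, together made up 0.432% of kept UMIs in PI4 and 0.293% in PI8. Summed counts cannot tell fewer expressing cells from less RNA per cell, so shares of cells are given beside them for the leading genes.

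**Figure D1:**
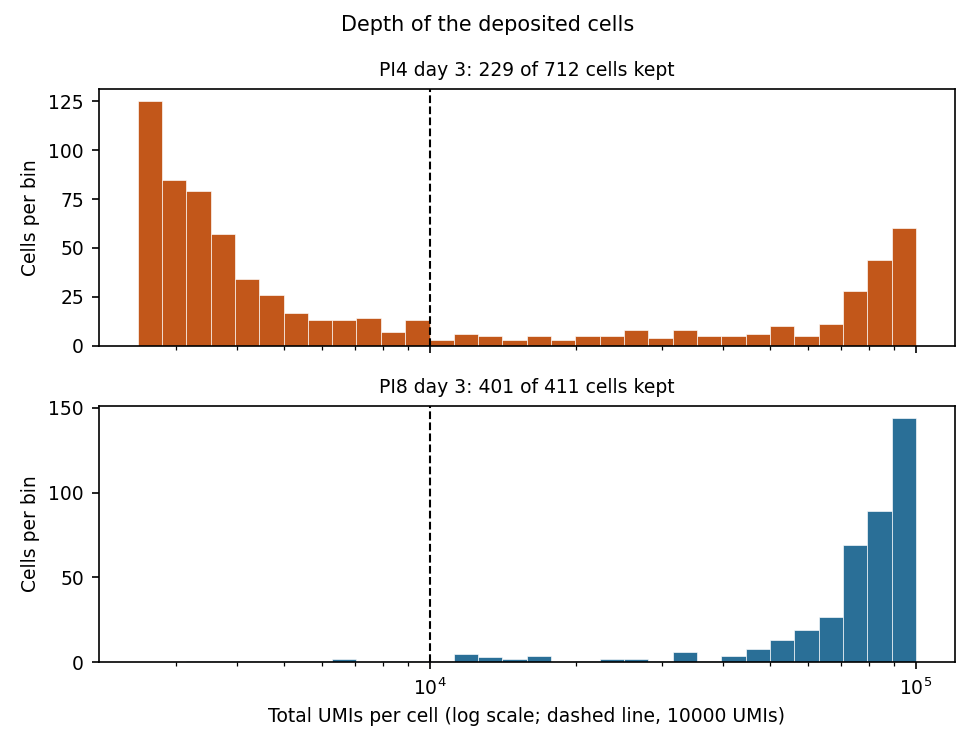
Histogram of total UMIs per deposited cell (horizontal axis, log scale) against the number of cells per bin for PI4 day 3 (top) and PI8 day 3 (bottom); the dashed line marks the limit of 10000 UMIs. PI4 cells lie in a shallow group of 483 cells left of the line and a deep group of 229 right of it, whereas 401 of 411 PI8 cells lie right of it.

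The 2 libraries were much alike. Across the 7561 genes that reached 10 CPM in either library, the Pearson correlation of log2(CPM + 1) was 0.950, against 0.745 and 0.748 between PI4 and the fibroblast libraries and 0.612 and 0.579 between PI4 and splenic cDC1 and cDC2. Such a value was not particular to this pair: it was 0.945 between PI4 day 3 and PI4 day 9 and 0.940 between PI8 day 3 and PIB day 3. Between PI8 day 3 and the PI8 day 9 library that stood apart it was 0.593. These are descriptions across genes, which are not independent. A gene was counted as different where the CPM differed at least 2-fold. By that rule 210 genes (2.78%) were higher in PI4 and 261 genes (3.45%) were higher in PI8, 6.23% in all. The median log2 ratio of PI4 over PI8 over all tested genes was -0.01. When only cells of 20000 to 60000 UMIs were summed, 58 PI4 and 46 PI8 cells, 214 genes were higher in PI4 and 932 higher in PI8. When each cell was thinned at random to 10000 UMIs, the counts were 216 and 392. Intervals given below are exact 95% intervals and cover counting error only.

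**Figure D2:**
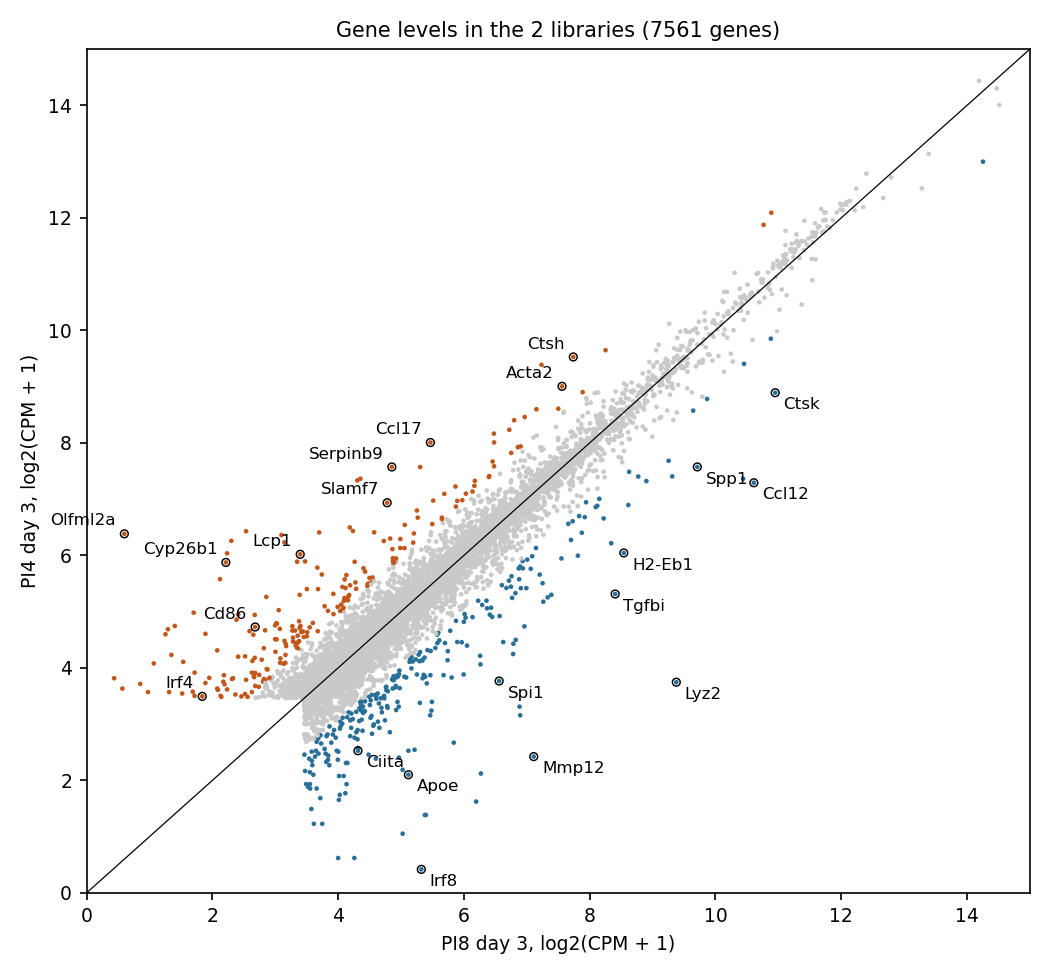
Level of each of the 7561 genes in PI8 day 3 (horizontal) and PI4 day 3 (vertical), as log2(CPM + 1) of summed counts; orange points are at least 2-fold higher in PI4 (210 genes), blue points at least 2-fold higher in PI8 (261 genes), and circles mark named genes. Most genes lie along the diagonal, with Irf8, Lyz2 and Mmp12 far below it and Olfml2a far above it.

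The delivered factors came first as a check on the labels. Irf8 was counted at 0.335 CPM in PI4 (5 UMIs, interval 0.109 to 0.783) and at 39.0 CPM in PI8 (1212 UMIs, 36.9 to 41.3). Irf4 was counted at 10.3 CPM in PI4 (8.7 to 12) and at 2.58 CPM in PI8 (2.04 to 3.21), a 3.98-fold difference (3.02 to 5.29). Both factors were thus higher in the library named for them, and the fibroblasts held 0 Irf4 and at most 0.0209 CPM of Irf8. Whether transcripts made from the vectors were counted under these genes is not given in the sources used here. After thinning, 0 of 229 PI4 cells held an Irf8 UMI, which allows a share of up to 1.31%, and 31.7% of PI8 cells did (27.1 to 36.5). No UMI of any factor delivered in the study was found in 62.9% of thinned PI4 cells and 29.9% of thinned PI8 cells.

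Spi1, which was delivered to both groups, was not at the same level in them. It was counted at 12.6 CPM in PI4 (10.9 to 14.5) and 93.4 CPM in PI8 (90.03 to 96.9), a 7.41-fold difference (6.39 to 8.63). A Spi1 UMI was found in 10.9% of thinned PI4 cells (7.19 to 15.7) and in 45.6% of thinned PI8 cells (40.7 to 50.7), against 0 of 3701 fibroblasts, which allows up to 0.0811%. At day 9 the level was 10.3 CPM in PI4 and 179 CPM in PI8. In the 3-factor sets it was 26.1 CPM in PIP and 30.7 CPM in PIB at day 3. Every PI4 to PI8 difference that follows is therefore a difference between cultures that differed in both the IRF and the Spi1 level, and the part of Spi1 in them was not tested.

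Among other transcription factors, Prdm1, a repressor that was part of the PIP set, was at 2.15 CPM in PI4 and 15.1 CPM in PI8, with 9.08 and 9.00 CPM in the fibroblasts. Cebpb, a driver of inflammatory myeloid genes, was 2.38-fold higher in PI8 (102 against 241 CPM). It was also expressed in the fibroblasts, at 811 CPM in the first of their libraries. Of 17 tested IRF family and partner factors outside the delivered set, 0 were at least 2-fold higher in PI4. Batf, an AP-1 partner of IRFs, was below the level limit in both libraries, at 7.45 CPM in PI4 and 1.77 CPM in PI8.

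MHC class II genes, which display peptides to CD4 T cells, were mostly higher in PI8. Of 11 tested members of the class II and co-stimulation list, 6 were at least 2-fold higher in PI8 and 1 in PI4, and the list median log2 ratio was -1.57. The β chain gene H2-Eb1 was at 65.0 CPM in PI4 and 372 CPM in PI8, a 5.72-fold difference (5.36 to 6.12). The β chain gene H2-Ab1 was at 73.3 and 324 CPM (4.42-fold, 4.15 to 4.71), and the α chain gene H2-Aa at 99.9 and 298 CPM (2.98-fold, 2.82 to 3.15). The genes of the peptide-loading chaperone H2-DM were also higher in PI8, H2-DMb1 by 5.20-fold and H2-DMa by 3.03-fold. Ciita, the co-activator that switches on the class II genes, was at 4.76 CPM in PI4 and 18.9 CPM in PI8, a 3.97-fold difference (3.1 to 5.15). The H2 genes are a family of similar copies, and the counting could have split reads among them.

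The class II genes were far from the splenic level in both libraries. Splenic cDC1 and cDC2 held 6940 and 9169 CPM of H2-Eb1. Cd74, the invariant chain that guides class II molecules, came nearest, at 1408 CPM in PI4 and 2648 CPM in PI8 (1.88-fold, 1.85 to 1.91), with 19184 CPM in cDC1. The fibroblasts were near 0 for H2-Aa and at 16.9 and 17.8 CPM for Cd74. An H2-Eb1 UMI was found in 19.2% of thinned PI4 cells (14.3 to 24.9), 44.9% of thinned PI8 cells (39.9 to 49.9) and 1.73% of fibroblasts.

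Among 3 co-stimulatory genes of the list, only Cd86 was past 2-fold at the level limit, on the other side from the class II genes. Cd86, a ligand of CD28 on T cells, was 4.71-fold higher in PI4 (3.92 to 5.69), at 25.5 CPM against 5.41 CPM. Cd40, a receptor for T cell help, was at 24.9 CPM in PI4 and 36.4 CPM in PI8, and Cd80, the second CD28 ligand, at 7.38 and 4.31 CPM. None of these genes had more than 0.23 CPM in the first fibroblast library except Cd80, with 18.0 CPM.

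The class II transcripts were unevenly spread over cells. In thinned cells the list sum had a median of 8 UMIs per PI4 cell and 21 UMIs per PI8 cell, with a range from the 5th to the 95th percentile of 0 to 53.6 and 1 to 146. The 10% of cells with most class II UMIs held 43.0% of them in PI4 and 42.4% in PI8. The list sum was 918 CPM in the 83 PI4 cells of up to 60000 UMIs and 2167 CPM in the 146 deeper PI4 cells. In PI8 it was 3070 CPM in 61 cells and 4266 CPM in 340 deeper cells. In both bands of depth PI8 was higher. Thinned PI4 cells with more class II UMIs had fewer contractile UMIs (Pearson correlation of log2(sum + 1) -0.33 over 229 cells), and in PI8 the value was -0.10 over 401 cells, each given as a description of cells that share a library.

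**Figure D3:**
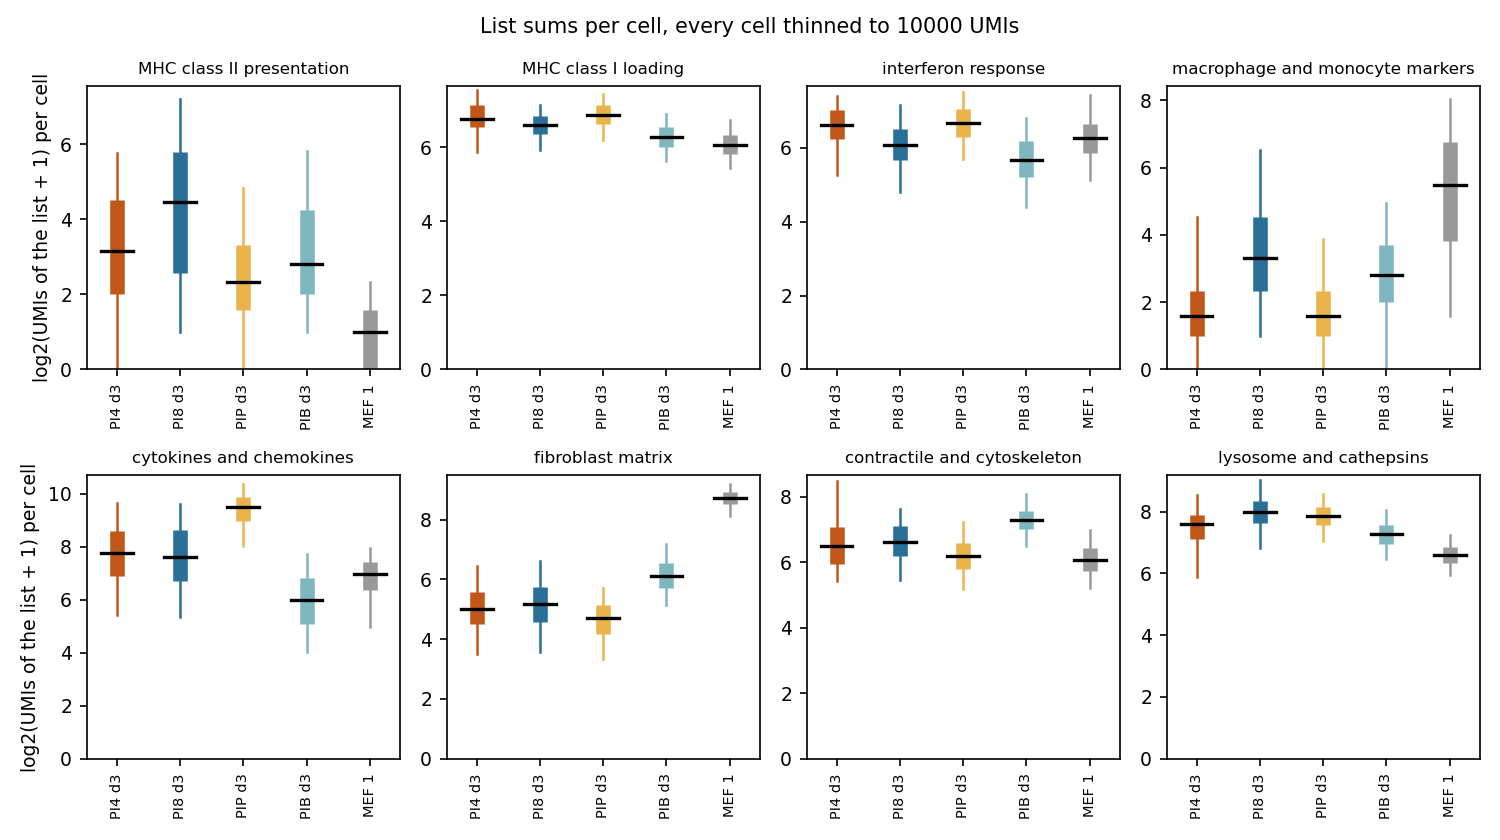
UMIs per cell summed over each of 8 gene lists, as log2(sum + 1), with every cell thinned to 10000 UMIs, in the 4 day 3 libraries and the first fibroblast library (MEF 1); black bars are medians, thick bars the middle 50% of cells and thin lines the 5th to 95th percentile. The class II median is highest in PI8 (21 UMIs), the interferon medians of PI4 and PIP (98 and 102) lie above those of PI8 and PIB (67 and 50), and the matrix list lies far below the fibroblasts in every transduced library.

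MHC class I genes, which display peptides to CD8 T cells, differed little. Of 16 tested class I and peptide-loading genes, 0 were at least 2-fold apart in either direction, with a list median of 0.35. The heavy chain gene H2-K1 was at 1274 CPM in PI4 and 910 CPM in PI8, and B2m, the light chain, at 4389 and 3403 CPM. Tap1, a subunit of the peptide transporter, was at 134 and 86.8 CPM. All 3 were modestly higher in PI4, by 1.40-fold, 1.29-fold and 1.55-fold.

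Interferon-induced genes leaned towards PI4. Of 28 tested members, 25 had a log2 ratio above 0 and 3 below, the median was 0.49, and 4 were at least 2-fold higher in PI4 and 2 in PI8. Across all tested genes 48.9% had a ratio above 0. Ifit3, an antiviral RNA-binding factor, was at 387 CPM in PI4 and 141 CPM in PI8 (2.74-fold, 2.63 to 2.85). The GTPase genes Irgm1 and Gbp2 were at 478 against 236 CPM (2.02-fold, 1.96 to 2.09) and 136 against 64.4 CPM (2.11-fold, 1.98 to 2.25). Ifi47, another GTPase gene, was at 125 and 61.9 CPM. Irgm1, Gbp2 and Ifi47 lay close to 2-fold, and each was under it in at least 1 alternative way of choosing or weighting the cells.

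The interferon genes at least 2-fold higher in PI8 were Cxcl10, a chemokine for activated T cells, and the GTPase gene Gbp7. Cxcl10 was at 42.5 CPM in PI4 and 106 CPM in PI8, and Gbp7 at 8.45 and 19.6 CPM. Neither was past 2-fold when cells were thinned or counted equally, where Cxcl10 came as near to equal as a log2 ratio of -0.07. The fibroblasts already expressed much of the list, with 978 and 1005 CPM of Ifit3 and 551 and 491 CPM of Cxcl10, above both transduced libraries. Irgm1, at 132 CPM in each fibroblast library, was below both.

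The letters were counted in the promoters of each group. The interferon element core was found on either strand in the 250 bases before the start of 13 of the 21 interferon list genes that have a promoter in the RefSeq table (61.9%), against 3.46% of all 27025 genes with one. It was found in 9.62% of the promoters of genes higher in PI4 (15 of 156), in 6.97% of those higher in PI8 (14 of 201) and in 3.76% of those of all tested genes. The X box letters were found in 3 of 9 class II list genes (33.3%) against 0.0518% of all genes, the Y box core in 6 of 9 (66.7%) against 37.5%, and TGACGTCA in 1 of 9 (11.1%) against 1.77%. The ETS-IRF letters, GGAA, any 2 bases and GAAA, were found in 3.85% of the promoters of genes higher in PI4 and 1.99% of those higher in PI8, against 2.57% of tested genes. These matches describe letters in a window and show no binding, and the letters were chosen with the sequences in view.

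Macrophage and monocyte genes had the lowest median among lists with at least 10 tested genes. Of 12 tested members, 8 were at least 2-fold higher in PI8 and 1 in PI4, with a median of -1.76. Lyz2, which encodes a lysozyme of macrophages and granulocytes, was at 12.4 CPM in PI4 (10.7 to 14.3) and 665 CPM in PI8 (656 to 674), a 53.6-fold difference (46.3 to 62.2). A Lyz2 UMI was found in 5.24% of thinned PI4 cells (2.74 to 8.98), 41.9% of thinned PI8 cells (37.0 to 46.9) and 1.38% of fibroblasts. All these cells were thinned to the same depth, and the fibroblasts were sequenced in libraries of their own.

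Apoe, a lipid carrier, was at 3.29 and 33.7 CPM, a 10.3-fold difference (7.7 to 14). Cd14, a co-receptor for bacterial lipopolysaccharide, was at 62.8 and 224 CPM (3.57-fold). Csf1r, the receptor for the macrophage growth factor, was at 13.6 and 43.2 CPM (3.18-fold). The complement genes C1qb and C1qc were at 6.24 and 27.3 CPM and at 4.16 and 13.3 CPM. Spp1, a secreted matrix protein, was at 189 and 838 CPM, but the fibroblasts held 7357 and 7453 CPM, and Apoe was at 103 CPM in each fibroblast library, so these members do not mark macrophages in this system. Cd36, a scavenger receptor, was the member higher in PI4, at 60.8 and 28.2 CPM, but stayed past 2-fold in 8 of 11 alternatives and not in thinned cells, cells counted equally or cells of 20000 to 60000 UMIs. S100a8, a calcium-binding protein and the 1 tested granulocyte gene, was at 2.08 and 72.2 CPM.

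Some receptors of innate cells were higher in PI8. Of 8 tested pattern recognition genes, 0 were higher in PI4 and 4 in PI8: Cybb, a subunit of the phagocyte oxidase (29.8 and 84.2 CPM), Tlr2 (4.96 and 18.9 CPM), Tlr4 (5.90 and 17.3 CPM) and Clec5a (2.41 and 16.3 CPM). Of 11 tested Fc and paired receptor genes, 4 were higher in PI8, including Fcgr3, a low-affinity receptor for IgG (13.1 and 39.6 CPM), Sirpa, an inhibitory receptor (7.92 and 43.1 CPM), and Pirb (2.35 and 15.3 CPM). The 1 receptor of that list higher in PI4 was Slamf7, a homotypic receptor of leukocytes, at 121 CPM against 26.5 CPM (4.59-fold, 4.22 to 4.99). Slamf7 was at 0 in both fibroblast libraries and at 282 and 317 CPM in cDC1 and cDC2. Between PIP and PIB at day 3, the second pair, this list went the other way. There, 6 of 9 tested Fc and paired receptor genes were higher in PIP and 2 in PIB, with a median of 2.53. Of all genes tested in that pair, 7.5% were higher in PIP and 12.8% in PIB, with a median of -0.18.

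Chemokines divided the libraries further. Ccl17, which attracts T cells through CCR4, was at 256 CPM in PI4 and 43.2 CPM in PI8 (5.93-fold, 5.57 to 6.31). Ccl22, the other CCR4 ligand, was under the level limit, at 5.03 and 1.13 CPM. Ccl12, a ligand of CCR2 that attracts monocytes, was at 156 CPM in PI4 and 1564 CPM in PI8, a 10.0-fold difference (9.64 to 10.5). In contrast, Ccl8, a close copy of Ccl12, was abundant in both, at 22178 and 18717 CPM, and reads may have been split between these genes. Of 19 tested cytokine and chemokine genes, 1 was higher in PI4 (Ccl17) and 7 in PI8, among them the neutrophil chemokines Cxcl1 (96.5 and 211 CPM) and Cxcl2 (83.6 and 234 CPM). Cxcl1 was at 517 CPM in the first fibroblast library.

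Genes shared by all leukocytes did not move as a block. Lcp1, an actin-bundling protein of blood cells, was 6.70-fold higher in PI4 (63.9 and 9.53 CPM, interval of the ratio 5.88 to 7.66), and Lsp1, another actin-binding protein, was at 101 and 37.5 CPM. Ptprc, which encodes CD45, was 2.94-fold higher in PI8 (8.99 and 26.5 CPM), and Itgb2, the common β2 integrin chain, was 9.26-fold higher (1.34 and 12.4 CPM). The list held 12 tested genes, of which 2 were higher in PI4 and 4 in PI8, with a median of -0.72. Among its 8 genes of at least 50 CPM, 2 were higher in PI4 and 1 in PI8, and the median was 0.0065. Ptprc stood at 464 and 1650 CPM in splenic cDC1 and cDC2, above both transduced libraries.

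Between PI4 and PI8, DC subset genes gave no simple division by the named IRF. Of 9 tested cDC1 markers, 1 was higher in PI4, Tlr3, a receptor for double-stranded RNA (22.2 and 8.72 CPM), and 2 in PI8, Irf8 itself and Naaa, a lipid hydrolase (18.0 and 109 CPM). Of 6 tested cDC2 markers, 1 was higher in PI4, Irf4 itself, and 3 in PI8, Sirpa, the integrin gene Itgam (39.2 and 112 CPM) and the lectin gene Cd209a (8.12 and 17.5 CPM). The defining cDC1 genes Clec9a and Xcr1 were at 0.0671 and 2.08 CPM in PI4. In PI8 Clec9a had 0 counts, which allows up to 0.0966 CPM, and Xcr1 was at 1.74 CPM. Splenic cDC1 held 331 and 423 CPM of them. Both groups carried Cre at both copies of Clec9a (Clec9aCre/Cre), so their Clec9a counts cannot be read for or against a cDC1 state. Flt3, the receptor for the DC growth factor, had 0 counts in both.

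The same question was put to genes that separate the splenic populations in these data at least 4-fold and reach 50 CPM. Of 54 tested genes higher in cDC1 than in cDC2, 5 were higher in PI4 (9.26%) and 4 in PI8 (7.41%), with a median of 0.01. Of 94 tested genes higher in cDC2 than in cDC1, 4 were higher in PI4 (4.26%) and 24 in PI8 (25.5%), with a median of -0.45. Of all tested genes, 2.78% were higher in PI4 and 3.45% in PI8. In the second pair, PIP and PIB at day 3, 6 of 54 tested cDC1 genes were higher in PIP and 18 in PIB, with a median of -0.51. Of 88 tested cDC2 genes there, 18 were higher in PIP and 23 in PIB, with a median of -0.02. Of all genes tested in that pair, 7.5% were higher in PIP and 12.8% in PIB, with a median of -0.18. Both cDC2 counts were thus above the shares of all genes, and their median did not lean to Irf8 there. The cDC1 median lay further to the PIB side than that of all genes. This pair also differs in Prdm1 and Batf3, and the cause was not tested. The splenic libraries took no part in choosing the cells, but the cDC2 set shares macrophage genes such as Lyz2 (191 CPM in cDC1, 699 CPM in cDC2) and Csf1r (3.06 and 89.0 CPM) with the lists above.

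**Figure D4:**
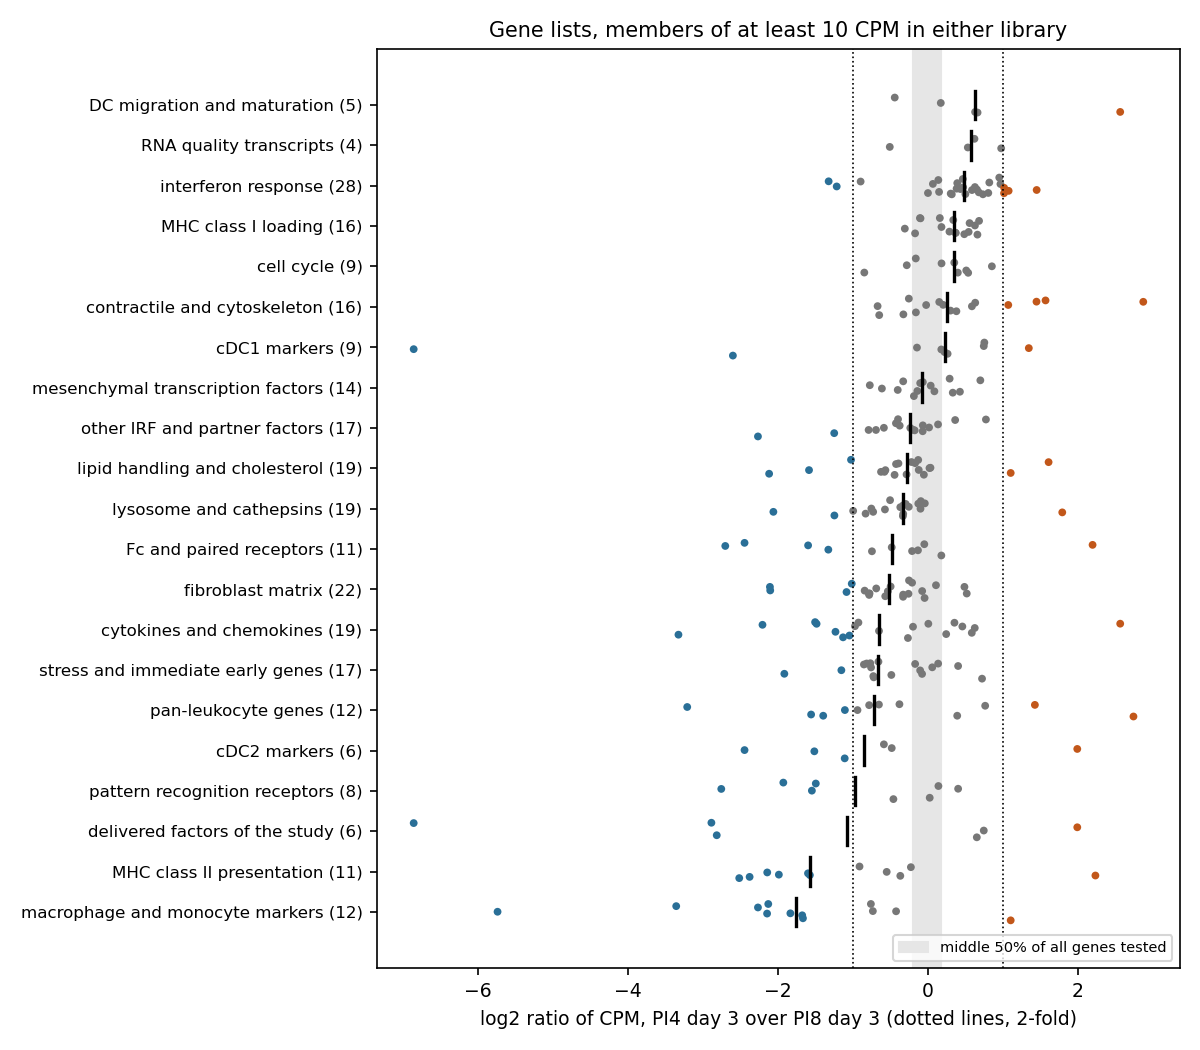
Log2 ratio of CPM, PI4 day 3 over PI8 day 3, of each gene that reached 10 CPM in either library, for lists with more than 2 such genes (points; numbers of genes in brackets); black bars are list medians, the grey band the middle 50% of all tested genes and dotted lines 2-fold. The macrophage and class II lists lie furthest to the left (medians -1.76 and -1.57), and the interferon list lies to the right of the band (median 0.49).

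Collagen genes stood far below the fibroblast libraries in both PI4 and PI8 and differed by less than 2-fold between them. Col1a1 and Col1a2, the chains of type I collagen, were at 69.4 and 349 CPM in PI4, 119 and 367 CPM in PI8, and 5449 and 4711 CPM in the first fibroblast library. Of 22 tested matrix genes, 0 were higher in PI4 and 4 in PI8, among them Postn (17.6 and 75.5 CPM) and Fbln2 (37.2 and 160 CPM). Of 14 tested mesenchymal transcription factors and 9 tested cell cycle genes, 0 were 2-fold apart in either direction. In cells of 20000 to 60000 UMIs, 2 mesenchymal factors were higher in PI8, and 2 cell cycle genes were higher in PI4 and 1 in PI8. With a limit of 1 CPM, 26 cell cycle genes gave 0 and 4, and their median turned from 0.35 to -0.57.

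Several genes of smooth muscle and activated fibroblasts were higher in PI4. Of 16 tested contractile and cytoskeletal genes, 4 were higher in PI4 and 0 in PI8. Acta2, smooth muscle actin, was at 513 and 188 CPM (2.73-fold, 2.64 to 2.83), against 81.7 and 85.4 CPM in the fibroblasts, and was under 2-fold in 1 alternative. Myl9, a myosin light chain, was at 110 and 37.1 CPM (2.97-fold), and Tagln, an actin-binding protein, at 242 and 115 CPM (2.10-fold), past 2-fold in 9 of 11 alternatives. The list count higher in PI4 was 2 in cells of at least 40000 UMIs, and 2 members were higher in PI8 in cells of 20000 to 60000 UMIs. The 10% of thinned cells with most UMIs of the contractile list held 31.7% of them in PI4 and 20.9% in PI8. The list sum as a whole was 10245 CPM in PI4 and 10970 CPM in PI8. Between PIP and PIB at day 3, this list went the other way. There, 0 of 15 tested members were higher in PIP and 9 in PIB, with a median of -1.19, against -0.18 for all genes.

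Most lysosome genes stood slightly higher in PI8. Of 19 tested members, 18 had a ratio below 0, with a median of -0.33, and 2 were at least 2-fold higher in PI8. The exception was Ctsh, an aminopeptidase of the lysosome, at 738 CPM in PI4 and 213 CPM in PI8 (3.47-fold, 3.36 to 3.58). Ctsk, a collagen-degrading cathepsin, was at 474 and 1980 CPM (4.17-fold higher in PI8, 4.07 to 4.28). The lysosome list did not keep this lean between PIP and PIB at day 3. There, 11 of 19 tested members had a ratio above 0, and 4 were higher in PIP and 2 in PIB. The median was 0.10, against -0.18 for all genes. In lipid handling, Fabp4, a fatty acid carrier, was 4.34-fold higher in PI8 (35.1 and 153 CPM), and Hmox1, the haem-degrading stress enzyme, was 3.77-fold higher (168 and 636 CPM).

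Outside the lists, the 12 genes furthest each way among those of at least 50 CPM were taken. On the PI8 side stood the matrix proteases Mmp12 (4.36 and 137 CPM, 31.5-fold, 24.6 to 40.9), Mmp3 (10.5-fold) and Mmp13 (4.83-fold), the secreted proteins Wfdc17 (22.7-fold), Selenop (13.1-fold), Tgfbi (8.72-fold) and Igfbp4 (4.66-fold), and the acute phase protein Saa3 (164 and 1389 CPM, 8.49-fold). Ifitm1 (14.9-fold), AA467197 (5.33-fold), Golm1 (4.57-fold) and Id1 (4.35-fold) completed the set. Saa3 and Tgfbi were fibroblast genes too, at 3346 and 166 CPM in the first fibroblast library. Tgfbi, an extracellular adhesion protein, was found in 70.3% of thinned PI8 cells and 16.6% of PI4 cells, whereas 90.5% of the thinned Mmp12 UMIs of PI8 lay in 10% of its cells.

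On the PI4 side the furthest gene was Olfml2a, at 82.5 CPM in PI4 (78.0 to 87.2) and 0.515 CPM in PI8 (0.294 to 0.837), a 160-fold difference (98.2 to 281). It was found in 41.5% of thinned PI4 cells and 0.499% of thinned PI8 cells, and stood at 32.6 CPM in PI4 at day 9. In PIP it was at 0 at day 3 and 0.0236 CPM at day 9, and in the fibroblasts at 1.25 and 1.09 CPM. Tmem35a (19.2-fold), Gm2115 (17.8-fold), Oosp1 (17.5-fold) and Cyp26b1 (15.9-fold), a retinoic acid hydroxylase, were also lower in PIP. In PI4 day 9 and PIP day 3, Tmem35a was at 37.8 and 1.94 CPM, Oosp1 at 24.3 and 0.935 CPM and Cyp26b1 at 24.8 and 1.19 CPM. Gm2115 was at 68.7 and 24.7 CPM there.

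The remaining PI4 genes were the protease inhibitors Serpinb6b (10.7-fold) and Serpinb9 (189 and 27.9 CPM, 6.78-fold), Ramp1 (9.44-fold), Hsd17b7 (8.53-fold), the nuclease gene Dnase1l3 (164 and 19.4 CPM, 8.42-fold), Diaph3 (7.01-fold) and the neuropeptide gene Tac1 (6.35-fold). Dnase1l3 was high in both splenic populations, at 507 and 426 CPM. All thinned Tac1 UMIs of PI4 lay in 10% of the cells, with 53 UMIs in 1 cell.

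The swap of Irf4 for Irf8 was also made in the PIP and PIB libraries of day 3, which took no part in the choice of cells but also differ in Prdm1 and Batf3. There, 576 of 7685 tested genes were higher in PIP (7.5%) and 983 higher in PIB (12.8%), 20.3% in all. With trimmed mean scaling these were 743 and 734, since that scaling moved the median log2 ratio of all genes from -0.18 to 0.03. Of 150 genes higher in PI4 and tested in both pairs, 60 were higher in PIP (40%) and 51 higher in PIB (34%), against 6.53% and 11.1% of all 7228 genes tested in both. Of 228 genes higher in PI8, 42 were higher in PIP (18.4%) and 108 higher in PIB (47.4%). Genes that differed between PI4 and PI8 thus differed often in the second pair, on either side. Their median log2 ratio of PIP over PIB was 0.23 for the PI4 genes and -0.82 for the PI8 genes, against -0.17 for all 7228. Across the 7228 genes the Pearson correlation of the log2 ratios was 0.21, a description.

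The class II genes kept their side in the second pair. H2-Ab1 was at 6.41 CPM in PIP and 59.6 CPM in PIB, H2-Eb1 at 16.3 and 50.5 CPM, and Ciita at 1.74 and 8.93 CPM. This pair also differs in Prdm1 and Batf3, and the cause of these differences was not tested. The counts by list were 6 of 10 tested class II genes higher in PIB and 1 higher in PIP. Interferon genes leaned to PIP, with 6 of 28 higher in PIP, 2 in PIB and a median of 0.46. The class I list had a median of 0.81, with 3 of 16 higher in PIP and 0 in PIB.

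The macrophage list was divided in the second pair. Of 10 tested members, 3 were higher in PIP and 3 in PIB, with a median of -0.65, against -0.18 for all genes. Lyz2 was at 0.0395 CPM in PIP and 91.0 CPM in PIB, but Csf1r was at 59.4 and 7.41 CPM. Ccl12 was at 2254 CPM in PIP and 86.0 CPM in PIB, and Mmp12 at 32.0 and 4.58 CPM, the reverse of the first pair. Cd86, higher in PI4, was at 1.73 CPM in PIP and 14.3 CPM in PIB.

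A test was possible only over the libraries that the comparison had not used. The 3 other libraries with Irf4 (PI4 day 9, PIP day 3 and PIP day 9) were set against the 3 with Irf8 (PI8 day 9, PIB day 3 and PIB day 9), with day as a term, in edgeR's quasi-likelihood test. Since the sets differ in further factors, these libraries do not replicate 1 condition, and the test asks for differences that run through all of them. The PI8 day 9 library, 208 of whose 683 cells were kept, is the one that stood apart. None of 15078 genes passed an adjusted p of 0.05 (0.0% called), with 1084 at an unadjusted p under 0.05 and a lowest adjusted p of 0.199. Without PI8 day 9, 0 of 14833 genes passed (2736 at an unadjusted p under 0.05), and the lowest adjusted p was 0.0544. DESeq2 on the same 6 libraries called 514 of 15925 genes (3.23%), 302 higher with Irf4 and 212 lower.

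Irf8 was below in every Irf4 library, at 0.318, 0.527 and 0.283 CPM against 82.7, 32.8 and 43.0 CPM in PI8 day 9, PIB day 3 and PIB day 9. The edgeR log2 difference was -6.78 ± 0.58 (SE) with an adjusted p of 0.226 over 6 libraries. Slamf7 was above in every Irf4 library, at 89.8, 35.8 and 97.8 CPM against 0, 3.15 and 8.54 CPM. Its edgeR log2 difference was 4.25 ± 1.26 (SE) with an adjusted p of 0.671 over 6 libraries, and 3.65 ± 0.18 with an adjusted p of 0.0544 without PI8 day 9. Without that library Irf8 had an adjusted p of 0.0600 in edgeR.

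Of the 209 tested genes higher in PI4 at day 3, 50 were above in all 3 other Irf4 libraries (23.9%) and 5 below (2.39%), where 6.4% and 12.3% of all tested genes were above and below. Of the 261 genes higher in PI8, 17 were below in all Irf4 libraries (6.51%) and 27 above (10.3%). Without PI8 day 9 the values for all genes were 11.4% above and 24.4% below. They were then 27.3% above and 12.4% below for the PI4 genes, and 13% above and 33.3% below for the PI8 genes. In the 6 libraries the PI8 genes thus had a lower share below and a higher share above than all tested genes, and without PI8 day 9 both of their shares were higher. Their count below was 17 with PI8 day 9 and 87 without it, and the count of PI4 genes below was 5 and 26. Over all tested genes the count below was 1861 and 3622. For a fixed set of genes, leaving out any library can only keep or raise such counts. No other library was left out for these counts, so the change cannot be credited to PI8 day 9 in particular.

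Among named genes, those above in all 3 other Irf4 libraries as well as higher in PI4 were Irf4, Ifi47, Irgm1, Slamf7 and Dnase1l3. Those below in all and higher in PI8 were Spi1, Irf8, Ptprc, Coro1a, H2-DMb1, Ccl9, Ifitm1 and Selenop. H2-DMb1 was at 20.4, 4.22 and 6.42 CPM in the Irf4 libraries and 40.0, 35.7 and 67.3 CPM in the Irf8 libraries. The other class II genes did not part in this way. H2-Aa, H2-Ab1, H2-Eb1 and H2-DMa overlapped between the sides, with and without PI8 day 9. Ciita and Cd74 overlapped over the 6 libraries and were below in every Irf4 library only when PI8 day 9 was left out. Lyz2 also overlapped between the sides, with and without PI8 day 9. Its mean over the 6 libraries was 32.6 CPM with Irf4 and 330 CPM with Irf8. The genes higher in PI8 but above in all 3 other Irf4 libraries were Itgam, Cd209a, Csf1r, Ccl12, Mmp12, AA467197 and Mmp13. Cd209a was at 47.4, 80.6 and 426 CPM in PI4 day 9, PIP day 3 and PIP day 9, and at 0.371, 0 and 0.336 CPM in the Irf8 libraries.

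**Figure D5:**
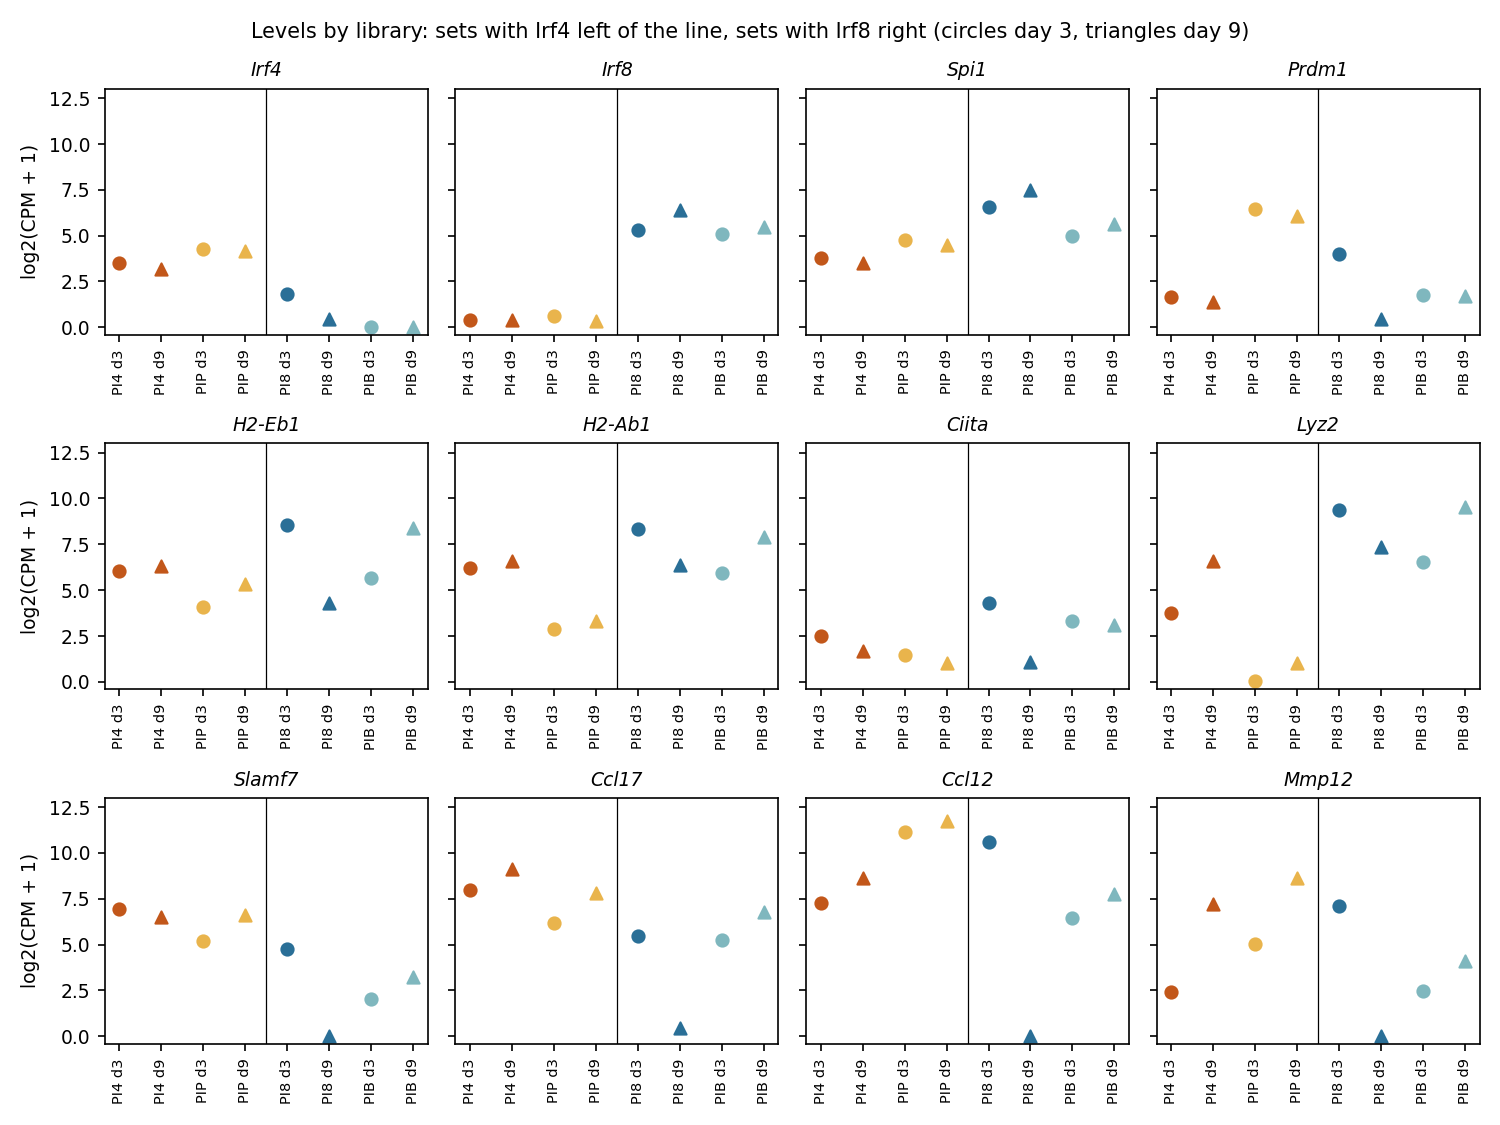
Level of 12 genes, as log2(CPM + 1) of summed counts, in each of the 8 libraries of the PI4, PIP, PI8 and PIB sets; circles are day 3, triangles day 9, and the vertical line parts sets with Irf4 from sets with Irf8, with 1 library per point. Irf8 and Spi1 are lower in every Irf4 library, Slamf7 is higher in every Irf4 library than in each Irf8 library, and Ccl12 and Mmp12 are high in PI8 at day 3 but lower or at 0 in the other Irf8 libraries.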

How the data were processed

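The authors deposited raw UMI counts, not normalized, for 24455 gene symbols by 25991 cells, and 0 columns could not be given to a library. The submitters' processing notes name Cell Ranger 6.0.1 and Seurat as tools and mm10 as genome build. The version of Seurat and the authors' filters on cells are not given in the sources used here. The deepest deposited cells held 99830 UMIs in PI4 day 3 and 99911 in PI8 day 3. The last bin below 100000 UMIs still held 60 and 144 cells, so the depths given may describe a range cut at the top.

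Cells were assigned to libraries by the start of their names and kept at 10000 UMIs or more. Counts were summed per library and scaled to CPM, with exact Poisson intervals. A ratio had an exact conditional binomial interval, a share of cells an exact Clopper-Pearson interval at 95%. A count of 0 was replaced by 3 counts per library in ratios. Genes of at least 10 CPM in either library were compared at 2-fold. Thinning drew 10000 UMIs per cell without replacement. Scrublet (scanpy 1.11.5) called 2 PI4 and 7 PI8 cells as doublets, which is 0.281% and 1.70% of cells; none were removed in the main values. The test over other libraries used edgeR 4.0.16, with DESeq2 1.42.0 as an alternative, in R 4.3.3 with Benjamini-Hochberg adjustment, and was tested on simulated data.

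Named genes were the delivered factors, members of the gene lists, the 12 highest and 12 lowest ratios outside the lists among genes of at least 50 CPM, and 8 genes each way from the test, of which there were 0. Members, lists and the limit on UMIs were chosen with earlier results of these data known. The lists of plasmacytoid DC, granulocyte, lymphoid and progenitor, and epithelial, endothelial, neural and muscle markers had 2, 1, 0 and 1 tested genes, with 0, 1, 0 and 0 higher in PI8 and 0 higher in PI4. Promoters are from RefSeq on GRCm38.p6, matched by symbol for 6066 of 7561 tested genes. One item is not reported here.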

Additional observations from a re-analysis of the deposited data

Results flagged for a closer look

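Of the named genes at least 2-fold apart in both pairs of day 3 libraries, 14 pointed one way between PI4 and PI8 and the other way between PIP and PIB. With 1 library per set, the difference between the pairs was not tested. The pairs also differ in Prdm1 and Batf3. On the log2 scale, the genes higher in PI8 but higher in PIP than in PIB were Mmp12 (-4.98 for PI4 over PI8, 2.80 for PIP over PIB), Ccl12 (-3.33 and 4.71), Prdm1 (-2.82 and 5.13; it was delivered in PIP), Ctsk (-2.06 and 2.64), Csf1r (-1.67 and 3.00), Syk (-1.33 and 2.54) and Cd209a (-1.11 and 10.31, the latter with the PIB count of 0 replaced by 3). The genes higher in PI4 but lower in PIP than in PIB were Tagln (1.07 and -3.80), Tlr3 (1.35 and -4.09), Acta2 (1.45 and -3.17), Myl9 (1.57 and -1.07), Pparg (1.61 and -5.31), Cd86 (2.24 and -3.05) and Serpinb9 (2.76 and -4.07).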

How the results depend on the processing

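Of 96 named genes past 2-fold, 77 stayed past it on the same side in all 11 alternative sets of cells and scalings; 93 kept their direction. The 3 reversals were Thy1 (0.53) and Nupr1 (0.56) in cells of 20000 to 60000 UMIs and Pparg (-0.066) in thinned cells; the cause was not tested. Genes higher in PI8 numbered 932 in cells of 20000 to 60000 UMIs and 392 in thinned cells. With a level limit of 1 CPM, 620 genes were higher in PI4 and 724 in PI8, and with 50 CPM 74 and 92, since the limit sets how many genes are tested. For PIP and PIB the counts were 1245 and 1947 at 1 CPM and 229 and 374 at 50 CPM. The test over other libraries called 0 genes without each library in turn, from 0 to 0, and 514 with DESeq2. Fits that added PI4 day 3 and PI8 day 3 reuse the values behind the choice of these libraries and so test nothing; they called 1 gene, and 1 when PI8 day 9 was then left out, the delivered Irf8 each time. No paired analysis was possible because each set has 1 library at each day and its replicate number pairs nothing. The lone libraries limit every comparison at day 3.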

Other observations

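The 483 PI4 cells under the limit held 1859791 UMIs in all, and 406 of them had under 5000 UMIs. Their summed levels differed from those of the 229 kept PI4 cells in many groups. The ribosomal transcript Gm42418 was at 64165 CPM under the limit and 3952 CPM above it, Malat1, a nuclear RNA, at 3470 and 16484 CPM, and the median mitochondrial share was 0.236% and 2.24%. The class II list stood at 788 and 1958 CPM and the contractile list at 17390 and 10245 CPM. The granulocyte list was at 104 CPM under the limit and 7.45 CPM above it, the macrophage list at 858 and 501 CPM, the pattern recognition list at 175 and 352 CPM, the cDC2 list at 104 and 189 CPM and the delivered factors at 25.8 and 55.7 CPM. The chemokine Ccl8, at 18938 and 22178 CPM, and the fibroblast matrix list, at 3748 and 3746 CPM, were close. Irf8 had 0 counts under the limit.

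Within each library the macrophage and matrix list sums of thinned cells went together, with a Pearson correlation of log2(sum + 1) of 0.42 over 229 PI4 cells and 0.38 over 401 PI8 cells. The macrophage list holds Spp1 and Apoe, which the fibroblasts also express. The class II sum and the macrophage sum had a correlation of -0.02 in both libraries. These are descriptions of cells that share a library.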
